A study of Mus musculus with 39 samples.

Results

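TCF/LEF factors are the DNA-binding proteins through which canonical Wnt signalling reaches its target genes, and 4 of them were followed together with 6 Wnt response and modulator genes in mouse epiblasts with and without *Stat3*. The 10 genes were *Lef1*, *Tcf7*, *Tcf7l1*, *Tcf7l2*, *Axin2*, *Sp5*, *Fzd10*, *Nkd1*, *Rspo3* and *Dkk1*, taken by symbol from the 47643 genes listed in each of the epiblast and EpiSC count tables, and all 10 passed the filter on low counts in each comparison below. They were chosen by symbol while measured values of these same libraries were known. The p-values below come from fits over all genes, do not account for that choice, and are given as descriptions of these libraries.

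RNA-seq was performed on 35 single epiblasts and 4 epiblast stem cell (EpiSC) lines. The *Stat3* null epiblasts numbered 4 (E5.5), 8 (E6.5) and 3 (E7.5), and the WT epiblasts 2, 9 and 9 at the same stages. They came from *Stat3* heterozygous inter-crosses on a CD1 background, were dissected by hand away from extraembryonic ectoderm and visceral endoderm, and were genotyped by PCR on extraembryonic tissue. The null allele was carried throughout the embryo and the mothers were heterozygous, so maternal product was not removed. The EpiSC lines (null 2 and 6, WT 8 and 13; each library is 1 line) were kept in N2B27 with FGF2, Activin A and XAV-939, a tankyrase inhibitor that stabilises Axin and lowers canonical Wnt signalling. The null and WT EpiSCs therefore both carried this Wnt inhibition, which the epiblasts did not.

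In canonical Wnt signalling, a Wnt ligand binds a Frizzled receptor and an LRP co-receptor, the Axin-based complex that destroys β-catenin is held back, and β-catenin joins TCF/LEF proteins on DNA. TCF7L1 acts mainly as a repressor that β-catenin relieves, whereas LEF1 and TCF7 act more as activators. In the early mouse embryo the pathway is known for its part in forming the primitive streak and mesoderm, with *Wnt3* acting before *Wnt3a*. *Axin2*, *Nkd1* and *Sp5* are activated by the pathway and restrain it in turn, DKK1 is a secreted inhibitor that binds LRP co-receptors, FZD10 is a Frizzled receptor, and RSPO3 is a secreted protein that strengthens Wnt signals at the cell surface.

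The promoter sequences are shown because the letters that TCF/LEF factors recognise can be looked for at the start of each gene. The 10 genes are these factors themselves and Wnt response and modulator genes. RefSeq windows (GRCm38.p6, 250 bases before to 50 after a start) were found for 9 of the 10 genes, with 14 windows in all. CTTTGAT or CTTTGAA was searched on both strands, and matches on opposite strands can overlap at their ends, so each window was counted once. At least one was found in 2 of 14 windows (14.29%) and in 2842 of all 32851 windows (8.65%). The *Sp5* match began 104 bases and the *Dkk1* match 117 bases before the start. The 250 bases before the start are given for both genes with the match in capitals, and for *Fzd10* and *Nkd1*, the members with the steepest rise in WT epiblasts, whose windows held no match. The starts are RefSeq's. By the GENCODE spans given in the last paragraph, the *Sp5* start is also the gene's first base, whereas the starts used for *Dkk1*, *Fzd10* and *Nkd1* lie 169, 262 and 6279 bases inside the gene, so the *Nkd1* stretch precedes an inner start.
Sp5 (chr2:70474673-70474922, plus strand): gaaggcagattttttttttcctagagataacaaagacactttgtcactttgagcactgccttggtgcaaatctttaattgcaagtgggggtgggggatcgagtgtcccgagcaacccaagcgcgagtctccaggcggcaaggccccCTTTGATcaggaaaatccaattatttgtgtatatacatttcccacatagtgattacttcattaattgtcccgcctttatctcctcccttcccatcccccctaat
Dkk1 (chr19:30549497-30549746, minus strand): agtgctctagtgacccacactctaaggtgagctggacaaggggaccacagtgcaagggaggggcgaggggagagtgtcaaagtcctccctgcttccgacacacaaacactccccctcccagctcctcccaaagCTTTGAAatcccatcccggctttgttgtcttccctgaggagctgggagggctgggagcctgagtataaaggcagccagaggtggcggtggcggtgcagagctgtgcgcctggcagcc
Fzd10 (chr5:128600856-128601105, plus strand): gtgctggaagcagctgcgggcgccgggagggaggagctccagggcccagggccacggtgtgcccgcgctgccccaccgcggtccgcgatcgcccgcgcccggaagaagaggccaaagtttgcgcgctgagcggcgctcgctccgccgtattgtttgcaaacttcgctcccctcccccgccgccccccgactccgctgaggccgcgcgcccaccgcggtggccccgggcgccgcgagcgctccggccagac
Nkd1 (chr8:88527383-88527632, plus strand): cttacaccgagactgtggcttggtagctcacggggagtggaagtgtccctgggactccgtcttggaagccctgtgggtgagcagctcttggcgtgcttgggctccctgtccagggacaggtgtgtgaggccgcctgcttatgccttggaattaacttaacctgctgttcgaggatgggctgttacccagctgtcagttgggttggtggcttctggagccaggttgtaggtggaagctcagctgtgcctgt
The GC content of the 14 windows ranged from 42.0% to 77.7% (median 65.8%, against 52.7% over all windows). *Fzd10* stood at the upper end with 77.7% and *Sp5* near the lower end with 45.0%. A match is only a run of letters in a window and was not measured as a binding site.

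Library totals were 22941210 to 79013960 counts for epiblasts and 63445877 to 127583699 for EpiSCs, so that the upper limit behind a count of 0 (3 counts) was 0.038 to 0.131 CPM (counts in a library scaled to a total of 1000000) and 0.0235 to 0.0473 CPM. *Stat3* itself was at 9.21 to 22.6 CPM in E5.5 null against 39.3 to 49.4 in WT, 1.41 to 7.59 against 5.84 to 27.2 at E6.5, 1.22 to 1.48 against 4.80 to 25.3 at E7.5, and 3.17 to 3.52 against 17.8 to 23.04 in EpiSCs. It overlapped between genotypes at E6.5 alone. 4 libraries stood apart from their groups (E5.5 null 1, E6.5 null 1, E6.5 WT 3 and E7.5 WT 3). They were listed by hand, with no fixed rule. E5.5 null 1 went against its tissue label, with 0.654 CPM of the epiblast marker *Pou5f1*, 4 of 8 epiblast markers at 0 and a summed level of 7 extraembryonic ectoderm markers of 982 CPM, where the E5.5 WT epiblasts had 158.5 and 326.1. In E6.5 null 1 that sum was 585.8 CPM, and in E6.5 WT 3 the sum over 8 visceral endoderm markers was 4907 CPM. E7.5 WT 3 had the highest epiblast marker sum of its group, 1504 CPM, where the group median was 506.7 CPM. E6.5 null 3, 4 and 8 had visceral endoderm sums of 5985, 4346 and 3873 CPM and were not set apart. Leaving out the 4 libraries was thus uneven between genotypes at E6.5. In bulk tissue, fewer cells of a type and less RNA per cell cannot be told apart. Each epiblast library came from 1 embryo, so the spread below is that between embryos.

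The TCF/LEF factors were detected in each library, with the lowest level that of *Lef1* in E5.5 null 1 (0.518 CPM). Their order was the same at E6.5 and E7.5 once levels were divided by exon length. In E6.5 WT epiblasts, *Tcf7l1* had 56.4 ± 4.66 CPM per kb (SD, n = 9), *Tcf7* 32.1 ± 3.30, *Lef1* 14.7 ± 2.33 and *Tcf7l2* 6.28 ± 1.60. In E7.5 WT epiblasts, the corresponding levels were 48.7 ± 10.9, 33.0 ± 5.62, 17.1 ± 2.97 and 8.81 ± 1.54 CPM per kb (SD, n = 9). Among the response and modulator genes of E6.5 WT, *Axin2* at 14.9 ± 6.06 CPM per kb lay within the spread of *Lef1*. The levels of *Sp5* (5.34 ± 6.47), *Dkk1* (1.92 ± 2.38), *Nkd1* (1.72 ± 0.92), *Rspo3* (1.44 ± 1.58) and *Fzd10* (1.03 ± 0.217 CPM per kb) did not separate beyond their spread. At E7.5 the WT order was *Axin2* at 29.6 ± 8.50, *Sp5* at 20.8 ± 8.15, *Nkd1* at 16.6 ± 7.41, *Rspo3* at 10.8 ± 4.36, *Fzd10* at 10.02 ± 4.01 and *Dkk1* at 4.71 ± 1.43 CPM per kb (SD, n = 9). Neighbours overlapped within their SDs, while *Axin2* at the top and *Dkk1* at the bottom did not. In that order *Axin2* lay within the SD of *Tcf7*, *Lef1* within the SD of *Sp5* and of *Nkd1*, and *Tcf7l2* within the SD of *Rspo3* and of *Fzd10*.

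**Figure D1:**
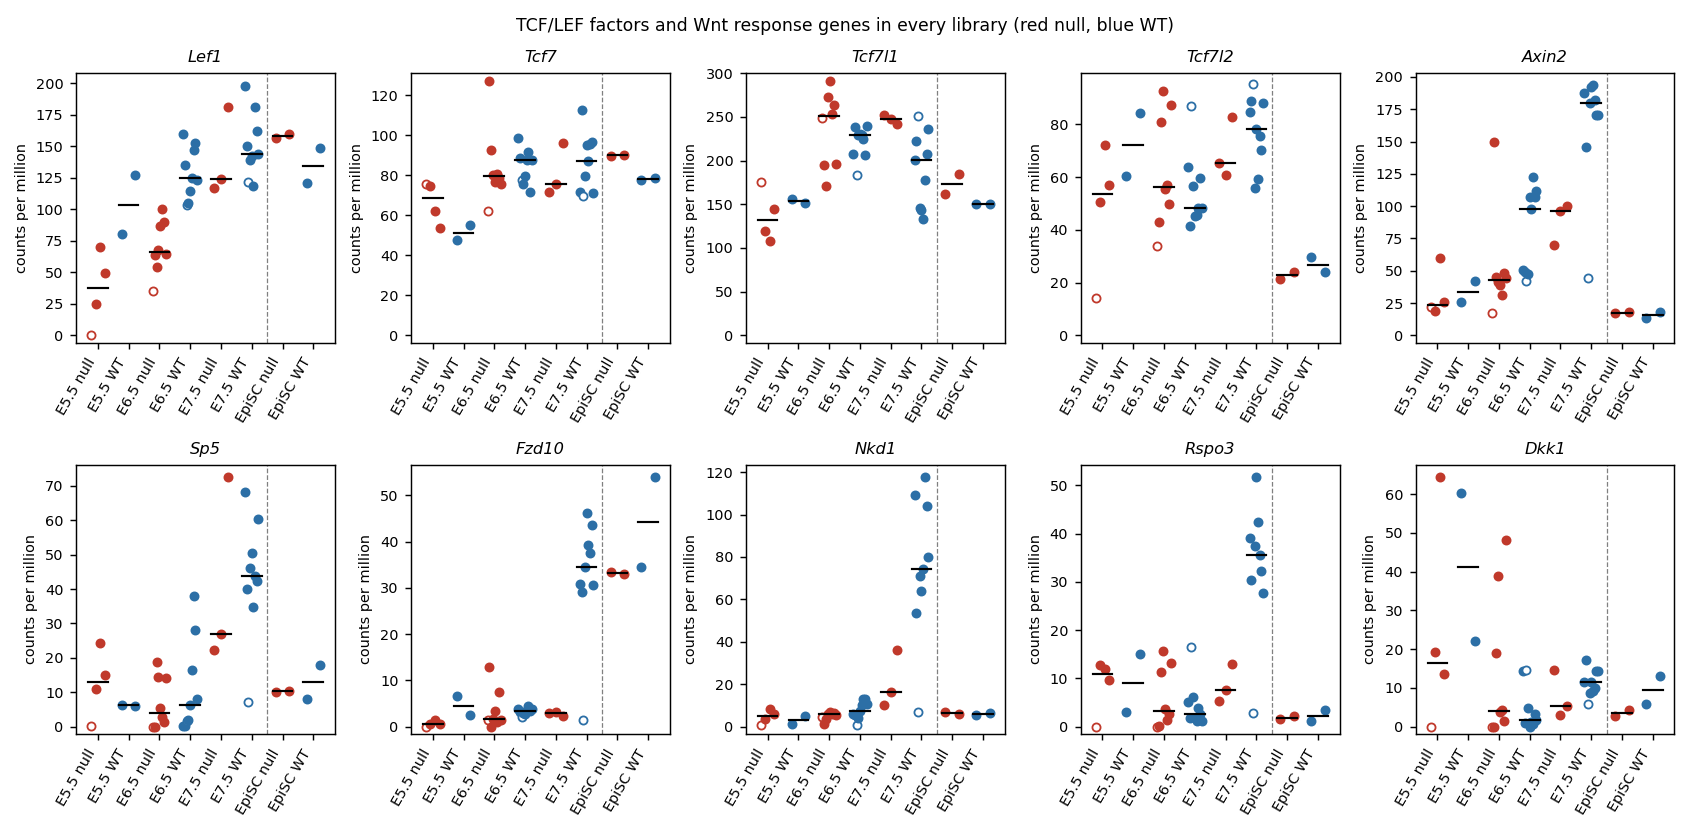
CPM (linear axes) of each of the 10 genes in each library, by group, with null in red, WT in blue, the group median as a black bar and the 4 libraries that stood apart as open circles; EpiSCs, made with another library kit, are right of the dashed line. *Fzd10*, *Nkd1* and *Rspo3* stood high in 8 of 9 E7.5 WT epiblasts and low in the open-circle one, E7.5 WT 3.

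What changed in normal development was asked first, by comparing WT stages. Between E5.5 and E6.5 none of the 10 genes passed both thresholds in the edgeR fits used here, where 5.15% of all genes did. The thresholds were an absolute log2 fold change over 1 and an adjusted p under 0.05, which the study applied with DESeq2. *Axin2* was at 25.9 and 41.9 CPM in the 2 E5.5 epiblasts and at 42.5 to 123 CPM (median 98.1) in the 9 E6.5 epiblasts. These groups did not overlap, but the log2 fold change of 1.31 ± 0.45 (SE) had an edgeR adjusted p of 0.0968. DESeq2 called *Axin2* (1.24, adjusted p = 0.00913), where it called 977 higher and 944 lower of the 20763 genes tested. *Axin2* was at 42.5 to 50.6 CPM in E6.5 WT 1 to 4 and at 98.1 to 123 CPM in WT 5 to 9, with nothing in between. *T*, the brachyury gene of the primitive streak and a Wnt target, was at 0 to 3.78 CPM in WT 1 to 4 and 22.5 to 59.6 CPM in WT 5 to 9. WT 1 to 3 were also the E6.5 WT libraries with over 40000000 counts. *Tcf7* (log2 fold change 0.75 ± 0.14, edgeR adjusted p = 0.00639) and *Tcf7l1* (0.56 ± 0.11, edgeR adjusted p = 0.00943) passed the p threshold with changes under the fold threshold. 3 genes (*Tcf7*, *Tcf7l1* and *Axin2*) were higher in each E6.5 than in each E5.5 epiblast, as were 7.02% of genes.

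*Dkk1* was the only one of the 10 below its E5.5 levels in each E6.5 WT epiblast, as were 9.63% of genes. It was at 60.3 and 22.2 CPM at E5.5 and at 0 to 14.7 CPM (median 1.84) at E6.5, with a log2 fold change of -3.11 ± 1.21 and an edgeR adjusted p of 0.153. *Dkk1* is made in the anterior visceral endoderm at this age, and the summed level of the 8 visceral endoderm markers moved in the same direction, from 5029 and 6519 CPM at E5.5 to 45.8 to 4907 CPM (median 161.1) at E6.5, with none of the 8 at 0 throughout a group. The part of these transcripts in the *Dkk1* levels was not tested. The median log2 fold change of the 10 genes was 0.46, against 0.10 over all genes tested.

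Between E6.5 and E7.5 the WT epiblasts gained *Fzd10*, *Nkd1* and *Rspo3*, and these 3 of the 10 genes were called higher, where 5.74% of all genes were called higher, 3.09% lower and 8.83% in either direction. *Fzd10* was at 2.08 to 4.49 CPM (median 3.45) in the 9 E6.5 epiblasts and at 1.49 to 46.1 CPM (median 34.4) in the 9 E7.5 epiblasts. It rose by a log2 fold change of 3.20 ± 0.37 (edgeR adjusted p = 1.06e-05). *Nkd1*, which encodes a Dishevelled-binding inhibitor, was at 0.719 to 13.1 CPM (median 7.46) at E6.5 and 6.71 to 118 CPM (median 74.1) at E7.5, a log2 fold change of 3.20 ± 0.48 (edgeR adjusted p = 1.44e-04). *Rspo3* went from 1.11 to 16.6 CPM (median 2.57) to 2.81 to 51.7 CPM (median 35.5), a log2 fold change of 2.78 ± 0.55 (edgeR adjusted p = 0.00123). The lowest E7.5 value of each of the 3 genes belonged to E7.5 WT 3, and the next lowest values were 29.2 CPM for *Fzd10*, 53.4 for *Nkd1* and 27.7 for *Rspo3*. The summed epiblast markers went from 1333 to 1617 CPM (median 1504) at E6.5 to 311 to 1504 CPM (median 506.7) at E7.5, and the summed visceral endoderm markers from 45.8 to 4907 CPM (median 161.1) to 369 to 4129 CPM (median 1590). Their part in the rise was not tested.

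*Axin2* and *Sp5* were also at higher levels at E7.5 but stayed short of one threshold each. *Axin2* had 44.6 CPM in WT 3 and 145.5 to 194 CPM in the other 8 E7.5 WT epiblasts. Its log2 fold change was 0.92 ± 0.26 (edgeR adjusted p = 0.0144), and without WT 3 it was 1.04 (edgeR adjusted p = 7.43e-04, called). *Sp5*, a zinc finger repressor induced by Wnt, ranged from 0.174 to 37.9 CPM (median 6.24) at E6.5 and from 7.24 to 68.1 CPM (median 43.7) at E7.5. Its log2 fold change of 1.90 ± 0.79 had an edgeR adjusted p of 0.0904. DESeq2 called it (1.90, adjusted p = 0.0355), and so called 4 of the 10 genes higher. Of the 17191 genes tested, DESeq2 called 1173 higher and 622 lower. *Dkk1* gave 1.18 ± 0.67 (edgeR adjusted p = 0.218). *Lef1* and *Tcf7* overlapped between the stages, *Tcf7l2* had a log2 fold change of 0.40 ± 0.14 (edgeR adjusted p = 0.037) and *Tcf7l1* one of -0.29 ± 0.11 (edgeR adjusted p = 0.0529). The median log2 fold change was 1.05 over the 10 genes and 0.01 over all genes tested.

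Other Wnt pathway genes moved at the same step. Of 88 listed (ligands, receptors, secreted modulators, transduction components, co-repressors, and feedback and target genes), 69 were tested between WT E6.5 and E7.5, and 21 were called higher and 4 lower. Of all genes tested, 5.74% were called higher and 3.09% lower at this step. Those with the smallest p were *Lgr4*, an R-spondin receptor that fell by 1.13 on the log2 scale, *Myc*, which fell by 1.51, and 4 that rose. The 4 were the ligand *Wnt5a* (log2 fold change 3.90), the caudal-type homeobox gene *Cdx2* (6.49), the receptor *Fzd1* (1.84) and *Rnf43*, a ubiquitin ligase that removes Frizzled receptors (3.19). By role, 6 of 12 ligands, 3 of 13 receptors, 4 of 9 secreted modulators, 1 of 17 transduction components, 1 of 6 co-repressors and 6 of 12 feedback and target genes were called higher. *Cdx2* was at 0 to 1.67 CPM in E6.5 WT and at 0.659 to 96.4 CPM in E7.5 WT. Between WT E5.5 and E6.5, 73 were tested, with 6 called higher and 2 lower, where 523 of all 20763 genes were called higher and 547 lower. The 6 with the smallest p and the value of each were *Fzd2* (2.28), *Bcl9*, a β-catenin cofactor (1.03), *Ccnd1*, which encodes cyclin D1 (1.70), *Wnt5b* (2.68), *Fzd3* (1.49) and *Cdx2*, which fell by 3.98 on the log2 scale. *Bcl9* lay under the fold threshold with DESeq2 (0.97). Without E5.5 WT 1, which leaves 1 epiblast at E5.5 whose spread is assumed to be that of the others, the edgeR adjusted p was 0.0880 for *Bcl9*, 0.0775 for *Ccnd1*, 0.224 for *Wnt5b*, 0.234 for *Fzd3* and 0.734 for *Cdx2*, so that only *Fzd2* of the 6 was then called. *Cdx2* is also expressed in extraembryonic ectoderm, whose 7 markers summed to 158.5 and 326.1 CPM in the E5.5 WT epiblasts and 5.999 to 133 CPM (median 11.2) at E6.5, and the highest *Cdx2* level of the 35 epiblasts was that of E5.5 null 1. The part of these transcripts in the *Cdx2* fall was not tested.

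Null and WT epiblasts were then compared within each stage. At E5.5 none of the 10 genes was called, and 0% of all 18690 genes tested were. edgeR gave 467 genes an unadjusted p under 0.05, none of them among the 10, and DESeq2 called 9 genes higher and 5 lower, again none of the 10. *Lef1* was at 0.518, 24.9, 70.1 and 49.8 CPM in null 1 to 4 and at 80.3 and 127 CPM in WT 1 and 2. The log2 fold change was -1.52 ± 1.29 (edgeR adjusted p = 0.999) with null 1, low in *Pou5f1*, included, and -1.11 without it. *Fzd10* was at 0, 0.654, 1.49 and 0.569 CPM in null 1 to 4 and at 6.58 and 2.57 CPM in WT 1 and 2, a log2 fold change of -2.78 ± 1.46 (edgeR adjusted p = 0.999). These 2 of the 10 genes were lower in each null than in each WT epiblast, as were 6.9% of genes. The other 8 genes overlapped between genotypes and lay between -0.793 (*Dkk1*) and 1.004 (*Sp5*) on the log2 scale.

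At E6.5, *Lef1* was the member that separated the genotypes. It was at 35.1 to 100.3 CPM (median 66.2) in the 8 null epiblasts and at 103.2 to 159 CPM (median 125) in the 9 WT epiblasts, so that the groups did not overlap. 0.0351% of genes, 6 of 17095, were lower in each null than in each WT epiblast. The log2 fold change was -0.90 ± 0.15 (edgeR unadjusted p = 8.22e-06, adjusted p = 0.14), under the fold threshold. Without the 2 E6.5 libraries that stood apart it was -0.84 (edgeR adjusted p = 0.0122), with null 3, 4 and 8 kept. Within the E6.5 libraries of under 40000000 counts it was -0.67 (edgeR adjusted p = 0.0333), and within those of over 40000000, an alternative added after the data were seen, it was -1.41 (edgeR adjusted p = 0.943). DESeq2 gave -0.90 (adjusted p = 1.34e-04). None of the 10 was called at E6.5, and 0% of all genes were, with 1414 genes at an unadjusted p under 0.05 and 15 called higher and 3 lower by DESeq2. Summed extraembryonic ectoderm markers were at 23.8 to 586 CPM in null and 5.999 to 133 CPM in WT, summed visceral endoderm markers at 96.8 to 5985 (median 767) and 45.8 to 4907 CPM (median 161). Summed epiblast markers were at 730.9 to 1472 CPM (median 1275.5) in null and 1333 to 1617 CPM (median 1504) in WT. Null 1 had the lowest null sum and the lowest *Lef1*. Null 5, 6 and 7 had the highest null sums (1456 to 1472 CPM) and the highest null *Lef1* (87.1 to 100.3 CPM). The part of these marker lists in the *Lef1* levels was not tested.

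The response genes overlapped between genotypes at E6.5. *Axin2* was at 17.4 to 48.4 CPM in 7 null epiblasts and at 149.6 CPM in null 2, with a log2 fold change of -0.64 ± 0.35 (edgeR adjusted p = 0.69). The direction depended on the libraries: it was -1.30 (edgeR adjusted p = 0.0333, called) within those of under 40000000 counts and 0.54 within those of over 40000000, which include null 2. Null 2 also had the highest *Fzd10* (12.9 CPM), *Tcf7* (127.1 CPM) and *Wnt3* (49.1 CPM) of the E6.5 epiblasts, and 28.6 CPM of *T*, with *Sp5* and *Dkk1* at 0. *Nkd1* was at 1.44 to 7.10 CPM (median 5.79) in null and had a log2 fold change of -0.63 ± 0.42 (edgeR adjusted p = 0.781). *Sp5* (-0.64 ± 1.14, edgeR adjusted p = 0.948) and *Dkk1* (1.57 ± 1.2, edgeR adjusted p = 0.832) varied widely within the null group. In null 3, 4 and 8, *Dkk1* was at 18.9, 39.0 and 48.2 CPM, *Rspo3* at 11.2, 15.6 and 13.2 CPM and *Sp5* at 18.9, 14.5 and 14.1 CPM. In the other 5 null epiblasts *Dkk1* was at 0 to 4.44, *Rspo3* at 0 to 3.65 and *Sp5* at 0 to 5.44 CPM. The 3 epiblasts were thus high for *Dkk1*, *Rspo3* and *Sp5* alike, and the 8 visceral endoderm markers summed to 5985, 4346 and 3873 CPM in them, against 96.8 to 958 CPM in the other 5. E6.5 WT 3, with a sum of 4907 CPM, had *Dkk1* at 14.7, *Rspo3* at 16.6 and *Sp5* at 1.75 CPM. WT 7 and 8, with sums of 45.8 and 161.1 CPM, had the highest WT *Sp5* of that stage (37.9 and 28 CPM). The part of these transcripts in these levels was not tested. The median log2 fold change of the 10 genes at E6.5 was 0.03, against -0.01 over all genes, and none of the 63 other Wnt pathway genes tested was called.

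At E7.5, *Fzd10* was lower in null epiblasts and was the 1 member called, where 1.09% of all genes were called lower, 0.0813% higher and 1.17% in either direction. It was at 2.89, 3.18 and 2.33 CPM in null 1 to 3 and at 29.2 to 46.1 CPM in 8 of the 9 WT epiblasts, with WT 3 at 1.49 CPM. The log2 fold change was -3.45 ± 0.75 (edgeR adjusted p = 0.0435). *Nkd1* was at 10.3, 16.5 and 36.2 CPM in null and 53.4 to 118 CPM in 8 WT epiblasts, with 6.71 CPM in WT 3, and had a log2 fold change of -1.76 ± 0.68 (edgeR adjusted p = 0.184; -2.41 without null 3). *Rspo3* was at 5.36, 7.59 and 13.1 CPM in null, 27.7 to 51.7 CPM in 8 WT epiblasts and 2.81 CPM in WT 3, with -1.85 ± 0.62 (edgeR adjusted p = 0.121). *Axin2* was at 70.3, 96.4 and 100.3 CPM in null, 145.5 to 194 CPM in 8 WT epiblasts and 44.6 CPM in WT 3, with -0.79 ± 0.33 (edgeR adjusted p = 0.212). In each of these 4 genes WT 3 lay below the 3 null epiblasts and the other 8 WT epiblasts lay above them.

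The number of members called at E7.5 depended on WT 3. With it, none of the 10 genes was lower in each null than in each WT epiblast, as were 2.45% of all genes. Without it, *Axin2*, *Fzd10*, *Nkd1* and *Rspo3* were, against 8.51% of genes, and *Fzd10* (-3.61, edgeR adjusted p = 1.44e-07), *Nkd1* (-1.91, edgeR adjusted p = 0.00854) and *Rspo3* (-2.01, edgeR adjusted p = 1.34e-04) were called. The share of all genes called in that fit is not given here. WT 3 was itself the lowest WT epiblast for *Axin2*, *Fzd10*, *Nkd1* and *Rspo3*, so leaving it out is not a separate check of them. WT 3 had 1504 CPM of summed epiblast markers, close to the 1146, 1568 and 1594 CPM of the null epiblasts and above the 311 to 697.5 CPM of the other WT. Its *T* level was 5.45 CPM, against 50.9, 71.6 and 169.9 CPM in null 1 to 3 and 78.5 to 237 CPM in the other WT. Leaving out any 1 of the other 11 libraries in turn left *Fzd10* between -3.55 and -3.33 with an edgeR adjusted p from 0.0608 to 0.189, so that no member was then called. DESeq2 on all 12 libraries called *Fzd10*, *Nkd1* and *Rspo3* lower, where it called 915 lower and 70 higher of the 19680 genes tested.

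None of the 4 TCF/LEF factors was called at E7.5. *Lef1*, the member that separated the genotypes at E6.5, was at 116.8, 124.4 and 181 CPM in E7.5 null and at 118 to 198 CPM (median 144) in WT. *Tcf7l1* was at 252.7, 247.8 and 241.9 CPM in null and at 134 to 250.7 CPM (median 201) in WT, a log2 fold change of 0.45 ± 0.18 (edgeR adjusted p = 0.179). Without WT 3 the other 8 WT epiblasts were at 134 to 236.3 CPM, and *Tcf7l1* was the 1 member higher in each null than in each WT epiblast, as were 4.8% of genes. Its log2 fold change was then 0.52 (edgeR adjusted p = 0.0393), under the fold threshold. *Tcf7* and *Tcf7l2* overlapped between genotypes. *Sp5* was at 22.3, 27.1 and 72.5 CPM in null and 7.24 to 68.1 CPM in WT, so it overlapped both with and without WT 3. *Dkk1* was at 14.6, 3.12 and 5.23 CPM in null and 5.85 to 17.3 CPM (median 11.5) in WT, with -0.49 ± 0.39 (edgeR adjusted p = 0.577), a value that moved to -1.37 without null 1 and -0.11 without null 2. 9 of the 10 log2 fold changes were below 0, with a median of -0.28, against -0.02 over all genes. Among the 9, *Lef1* was only at -0.020, *Tcf7* at -0.016, *Tcf7l2* at -0.080 and *Sp5* at -0.016. The 8 visceral endoderm markers summed to 35.5 to 239 CPM in null and 369 to 4129 CPM (median 1590) in WT, with none at 0 throughout a group. The 6 nascent mesoderm markers summed to 508.9 to 801.6 CPM in null and 132.4 to 367.3 CPM in WT, without overlap. The largest part of the null sum was *Eomes*, at 335.6, 420.5 and 394.4 CPM against 2.84 to 202.5 CPM in WT. *Mixl1* was also higher in each null than in each WT epiblast. *T*, *Mesp1*, *Lhx1* and *Tbx6* overlapped between genotypes. *Tbx6* was at 1.28, 2.37 and 8.45 CPM in null, 0.760 CPM in WT 3 and 17.4 to 44.7 CPM in the other 8 WT. The part of either list in these differences was not tested.

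**Figure D2:**
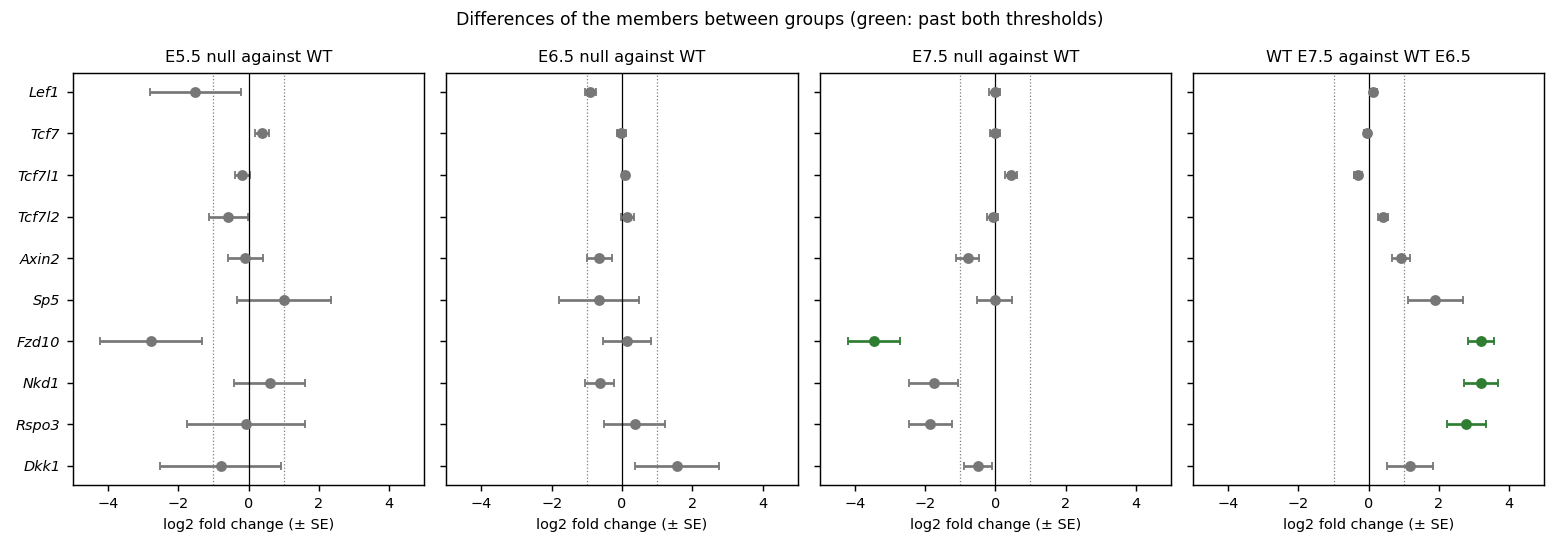
Log2 fold change with its standard error (edgeR) of each of the 10 genes for null against WT at each stage and for WT E7.5 against WT E6.5; dotted lines mark the fold threshold and green points passed both thresholds. *Fzd10* alone is green for null against WT, at E7.5, and *Fzd10*, *Nkd1* and *Rspo3* are green between WT stages.

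Among the other Wnt pathway genes, 80 were tested at E7.5, with 1 called higher and 4 lower in null, where 0.0813% of all genes were called higher and 1.09% lower. *Wnt3*, the early streak ligand, was higher in null (13.04, 20.9 and 22.1 CPM) than in WT (1.19 to 9.02 CPM, median 4.39), a log2 fold change of 2.14 ± 0.45 (edgeR adjusted p = 0.0337). *Rspo1*, a relative of *Rspo3*, was at 3.63 to 5.61 CPM in null and 4.53 to 17.3 CPM in WT, a log2 fold change of -1.35. Leaving out 1 library other than WT 3 took the edgeR adjusted p to between 0.0453 and 0.157 for *Wnt3* and between 0.0617 and 0.196 for *Rspo1*. 3 genes had no counts in any E7.5 null epiblast, and their folds are lower bounds set against 3 counts in each null library. *Msgn1*, a presomitic mesoderm factor, was at least 220-fold lower in null, with a WT mean of 16.6 CPM. *Notum*, a secreted enzyme that inactivates Wnt proteins, was at least 89.8-fold lower, with a WT mean of 6.79 CPM. The ligand *Wnt6* was at least 58.3-fold lower, with a WT mean of 4.41 CPM. WT 3 also had no counts of these 3 genes. *T*, in contrast, was detected in all 3 null epiblasts.

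**Figure D3:**
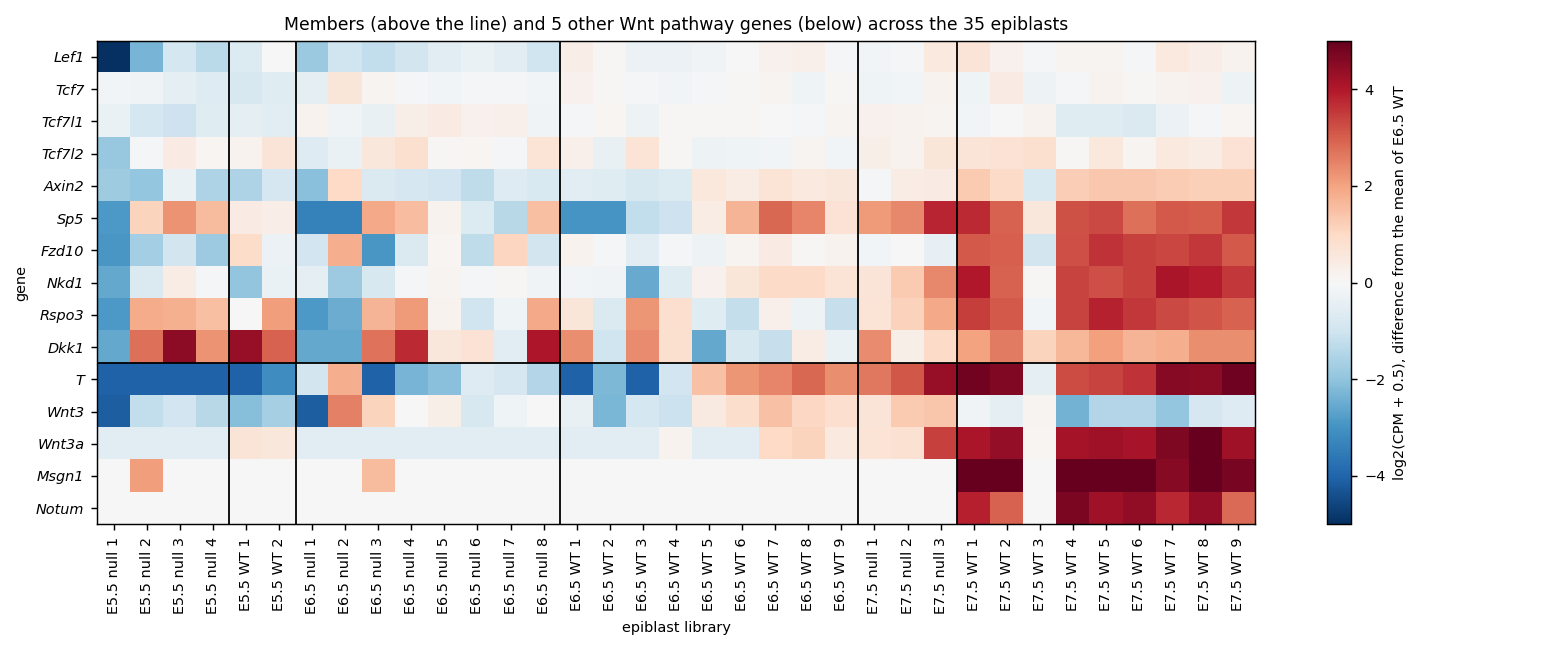
Log2(CPM + 0.5) of the 10 genes (above the horizontal line) and 5 other Wnt pathway genes (below) in the 35 epiblasts, as the difference from the mean of the E6.5 WT epiblasts, with colours limited to -5 to 5 and vertical lines between groups. E7.5 WT 3 lacks the red block that the other 8 E7.5 WT epiblasts share for *Fzd10*, *Nkd1*, *Rspo3*, *Wnt3a*, *Msgn1* and *Notum*, as do the 3 E7.5 null epiblasts for *Fzd10*, *Msgn1* and *Notum*.

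Whether the genotype difference changed between stages was tested as an interaction of genotype with stage over the E6.5 and E7.5 epiblasts. None of the 10 genes was called, where 0.443% of all genes were, and 3129 genes had an unadjusted p under 0.05. *Fzd10* came nearest among those past the fold threshold, with a difference of -3.61 ± 1.08 on the log2 scale (edgeR adjusted p = 0.0968). DESeq2 called it (-3.66, adjusted p = 0.00486), as did edgeR without the 4 libraries that stood apart (-3.83, adjusted p = 0.0154). Those libraries include E7.5 WT 3, the lowest E7.5 WT epiblast for *Fzd10*. *Lef1* gave 0.87 ± 0.23 (edgeR adjusted p = 0.0675), *Rspo3* -2.23 ± 1.34 (edgeR adjusted p = 0.4931) and *Nkd1* -1.15 ± 0.73 (edgeR adjusted p = 0.53). Of the 83 other Wnt pathway genes tested, *Msgn1* and *Bcl9l* were called, *Bcl9l* with -1.003 (edgeR adjusted p = 0.0488, and 0.106 to 0.215 without 1 of the E7.5 null epiblasts).

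The null epiblasts were next followed through the stages. These comparisons share libraries with those above, so their values are set side by side and not counted as separate evidence. From E5.5 to E6.5 none of the 10 genes was called in null, where 1.98% of all genes were. *Tcf7l1* had a log2 fold change of 0.77 ± 0.16 (edgeR adjusted p = 0.0209), against 0.56 in WT. *Fzd10* had 2.43 ± 1.45 (edgeR adjusted p = 0.428), with null levels of 0 to 1.49 CPM at E5.5 and 0 to 12.9 CPM (median 1.63) at E6.5. Of 65 other Wnt pathway genes, 4 were called higher: *Tnfrsf19* (3.79), *Fzd2* (2.58), *Ccnd1* (2.62) and *T*. Without E5.5 null 3 or 4 the first 3 had an edgeR adjusted p of 0.0564 to 0.097 and were not called. Over all 4 fits that left out 1 E5.5 null epiblast, the edgeR adjusted p reached 0.0679 for *Tnfrsf19*, 0.131 for *Fzd2* and 0.149 for *Ccnd1*. *T* had no counts in the 4 E5.5 null epiblasts and a mean of 5.80 CPM at E6.5, at least 59.6-fold higher against 3 counts in each E5.5 null library, but its E6.5 values ran from 0 to 28.6 CPM with the highest in null 2.

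From E6.5 to E7.5 none of the 10 genes was called in null either, where 0.103% of all genes were. *Lef1* (log2 fold change 1.004 ± 0.24, edgeR adjusted p = 0.143), *Nkd1* (2.05 ± 0.44, edgeR adjusted p = 0.11) and *Sp5* (2.51 ± 1.31, edgeR adjusted p = 0.697) were higher in each E7.5 than in each E6.5 null epiblast, as were 3.77% of genes. DESeq2 called *Nkd1* (adjusted p = 0.0027). Without E7.5 null 3, the *Nkd1* value was 1.41 (edgeR adjusted p = 0.871). *Fzd10* was at 0 to 12.9 CPM in E6.5 null and 2.33 to 3.18 CPM in E7.5 null and gave -0.42 ± 1.2 (edgeR adjusted p = 0.9997; 0.26 without E6.5 null 2), where the WT fold was 3.20. *Rspo3* gave 0.55 ± 1.24 (edgeR adjusted p = 0.9997) in null against 2.78 in WT, and *Axin2* 0.76 ± 0.47 (edgeR adjusted p = 0.784) in null against 0.92 in WT. Among the 71 other Wnt pathway genes tested, none was called by edgeR.

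The study asked whether null epiblasts resemble WT epiblasts of the stage before, and the 10 genes were therefore set across stages. For the E7.5 null group set against WT of E6.5, none was called, where 0.162% of all genes were. *Fzd10* was at 2.33 to 3.18 CPM in E7.5 null and 2.08 to 4.49 CPM in E6.5 WT, a log2 fold change of -0.28 ± 0.34 (edgeR adjusted p = 0.938). *Nkd1* gave 1.42 ± 0.55 (edgeR adjusted p = 0.444), *Sp5* 1.86 ± 1.21 (edgeR adjusted p = 0.763) and *Rspo3* 0.91 ± 0.69 (edgeR adjusted p = 0.819), each with overlapping groups. Without E7.5 null 3 these 3 values were 0.77, 1.14 and 0.49. *Tcf7l1* was the 1 gene higher in each E7.5 null than in each E6.5 WT epiblast, as were 2.95% of genes. *Lgr4* was called lower among 69 other Wnt pathway genes (-1.05), and not without any 1 of the 3 E7.5 null epiblasts (edgeR adjusted p 0.0951 to 0.242). For the E6.5 null group set against WT of E5.5, none of the 10 was called, where 0.162% of all genes were. *Tcf7* gave 0.69 ± 0.24 (edgeR adjusted p = 0.300), *Tcf7l1* 0.60 ± 0.19 (edgeR adjusted p = 0.242) and *Lef1* -0.59 ± 0.29 (edgeR adjusted p = 0.555). A missed threshold in these small groups does not show that the levels were alike.

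In EpiSCs none of the 10 genes was called, where 0.106% of all genes were. *Dkk1* was at 2.66 and 4.44 CPM in null 2 and 6 and at 5.97 and 13.2 CPM in WT 13 and 8, a log2 fold change of -1.45 ± 0.48 (edgeR adjusted p = 0.477), which DESeq2 called (adjusted p = 0.0214). *Fzd10* was at 33.5 and 33.0 CPM in null and 34.5 and 53.9 CPM in WT, -0.44 ± 0.24 (edgeR adjusted p = 0.716). These 2 genes were lower in both null lines than in both WT lines, as were 18.8% of genes. *Lef1* (0.21 ± 0.12, edgeR adjusted p = 0.716), *Tcf7* (0.18 ± 0.07, edgeR adjusted p = 0.506) and *Tcf7l1* (0.19 ± 0.09, edgeR adjusted p = 0.613) were higher in both null lines, as were 21.4% of genes. None of the 76 other Wnt pathway genes tested was called. EpiSC and epiblast libraries were prepared with other kits, so their levels stand side by side without a test. *Fzd10* at 33.0 to 53.9 CPM in EpiSCs stood beside 2.08 to 4.49 CPM in E6.5 WT epiblasts, while *Axin2* at 13.6 to 18.3 CPM and *Nkd1* at 5.42 to 6.84 CPM stood beside 42.5 to 123 and 0.719 to 13.1 CPM. The 10 genes thus did not sit on one side of the E6.5 WT levels. In E7.5 WT epiblasts *Fzd10* was at 1.49 to 46.1 CPM, which overlapped the EpiSC levels. *Axin2* was at 44.6 to 194 CPM and *Nkd1* at 6.71 to 118 CPM in that group.

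How the members varied with one another was described over the 20 WT epiblasts with no p, since these points include the differences between stages and the 2 WT libraries that stood apart. *Axin2* and *Nkd1* had a Spearman's rho of 0.92, *Sp5* and *Nkd1* 0.896, *Axin2* and *Fzd10* 0.836, and *Axin2* and *Sp5* 0.827. *Tcf7l1* ran the other way to *Rspo3* (-0.713), and *Dkk1* followed *Tcf7l2* (0.743) more than *Axin2* (-0.09). Among 10955 genes with a mean of at least 5 CPM, the most alike by rho were *Hmga2* for *Axin2* (0.953), *Dock11* for *Nkd1* (0.965), *Ccnb2* for *Sp5* (0.938), *Rbl1* for *Fzd10* (0.929), *Plxnd1* for *Rspo3* (0.925) and *Eda* for *Dkk1* (0.902). For the factors they were *Shb* for *Tcf7l1* (0.89), *Srrm4* for *Lef1* (0.844), *Parm1* for *Tcf7l2* (0.835) and *Vegfb* for *Tcf7* (0.806). With Pearson's r, at most 1 of the 3 most alike genes of each member stayed the same.

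The 10 genes lie on 8 chromosomes of GRCm38 (GENCODE vM21). *Lef1* spans chr3:131110471-131224356 and *Fzd10* chr5:128600844-128604093, both on the plus strand. *Nkd1* spans chr8:88521354-88594884 on the plus strand and *Rspo3* chr10:29452416-29535867 on the minus strand. *Axin2* (chr11:108920349-108950783, plus strand) lies 7.98 Mb and *Tcf7* (chr11:52252371-52283014, minus strand) 48.6 Mb from *Stat3*, so *Axin2* is on the same chromosome as the targeted locus and near it. *Dkk1* and *Tcf7l2* share chromosome 19. Antisense genes overlap *Lef1*, *Tcf7*, *Tcf7l1*, *Axin2* and *Rspo3*, and the strand setting of the counting is not given in the sources used here, so the counts of these 5 genes may include reads of the antisense partner. *Lef1*, *Tcf7*, *Tcf7l1*, *Tcf7l2*, *Nkd1* and *Rspo3* also overlap annotated genes on their own strand, which strand alone does not separate.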

How the data were processed

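Raw counts per gene were used as the authors deposited them, in a table for 35 epiblasts and a table for 4 EpiSC lines. Per the labels and the methods of the study, reads were trimmed with Trim Galore, aligned to GRCm38 with HISAT2 and counted with StringTie. The annotation version and strand setting are not given in the sources used here. Epiblast libraries were made with a low-input stranded total RNA kit and EpiSC libraries with another kit after ribosomal depletion, so the tables were never tested against each other.

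The 10 genes and the gene lists were chosen with earlier results of these data known. Counts were tested with edgeR 4.0.16 (R 4.3.3; TMM, filterByExpr with a count minimum of 10, robust quasi-likelihood fits of only the groups compared), with Benjamini-Hochberg adjustment over all genes tested. CPM is counts scaled to a library total of 1000000, and CPM per kb divides it by the exon length in GENCODE vM21 (matched by gene ID without version for 47224 of the IDs). All tests were two-sided. SE is the log2 fold change divided by the root of its F value. The limit of 3 counts behind a count of 0 covers counting error only. Other genes named are Wnt pathway genes called in a comparison, at most 6 by smallest p, and those most alike to each member by Spearman's rho. Genes named outside these rules (*T*, *Wnt3* and *Pou5f1* levels per library) were chosen after their values were seen. Likeness used log2(CPM + 0.1).

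Replicate numbers were checked and did not pair the samples. Alternatives were DESeq2 1.42.0, its size factors, no filter, no gene over 1% of counts, a replicate block, leaving out each library, the 4 that stood apart, or E6.5 libraries over 40000000 counts.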

Additional observations from a re-analysis of the deposited data

Results flagged for a closer look

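In 8 of 40 groups of 4 to 10 libraries, the highest or lowest CPM of a member lay farther from the rest than Dixon's 95% limit allows. That limit is passed in about 1 in 20 independent groups of normally distributed values. These were untransformed CPM of genes that vary together in the same libraries, so the 8 cannot be set against that rate. 3 of the 8 were the low values of E7.5 WT 3: *Axin2* at 44.63 CPM (next 145.5), *Fzd10* at 1.495 CPM (next 29.15) and *Rspo3* at 2.812 CPM (next 27.72). 2 were the high values of E6.5 null 2, for *Axin2* at 149.6 CPM (next 48.36) and *Tcf7* at 127.1 CPM (next 92.6). 2 were the high values of E6.5 WT 3, for *Tcf7l2* at 86.93 CPM (next 63.94) and *Rspo3* at 16.56 CPM (next 6.075). The last was *Axin2* in E5.5 null 3 at 60.17 CPM (next 25.62).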

How the results depend on the processing

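For null against WT at E7.5, 1 member was called, and the number was 3 with DESeq2 or without the 4 libraries that stand apart, 0 with no filter on low counts and 0 to 3 when leaving out 1 library. For WT E6.5 against E5.5, 0 members became 1 with DESeq2 and 2 without E6.5 libraries over 40000000 counts. That last setting also gave 1 in place of 0 for null against WT at E6.5, 2 in place of 0 for null E7.5 against E6.5, and 1 in place of 0 for the interaction, where DESeq2 gave 1 and leaving out the 4 libraries 2. DESeq2 also gave 1 in place of 0 for null E7.5 against E6.5 and for EpiSCs. For WT E7.5 against E6.5, leaving out 1 library gave 3 to 5. The cause of these changes was not tested. The share of all genes called was not set beside each of these counts.

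Within E6.5 libraries over 40000000 counts alone, chosen after seeing the data, the log2 fold change of null against WT reversed for *Axin2* (0.54), *Sp5* (3.10) and *Dkk1* (-0.72). Leaving out 1 library gave -1.94 to 0.16 for *Dkk1* at E5.5 and -0.61 to 0.26 for *Fzd10* in null E7.5 against E6.5.

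Replicate numbers did not pair the epiblasts: same-numbered libraries had mean correlations from -0.08 to 0.11 of their deviations, and in no comparison did every library correlate best with its own number. With the replicate block, members called went from 1 to 0 for null against WT at E7.5, and from 0 to 1 for WT E6.5 against E5.5 and for E7.5 null against E6.5 WT. Under it *Sp5* at E5.5 was -1.86 and *Fzd10* in null E7.5 against E6.5 was 1.31. Groups of 2 or 3 embryos limit the precision at E5.5, in E7.5 null and in EpiSCs.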
